A study of Mus musculus with 8 samples.

Results

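The genes described here encode the cardiac myosin heavy and light chains and their nearest partners. They were chosen by name as 10 rows of a table of 54532 genes: the heavy chains Myh6, Myh7 and Myh7b, the microRNA gene Mir208b inside Myh7, the light chains Myl2, Myl3, Myl4 and Myl7, the myosin-binding protein Mybpc3 and the light chain kinase Mylk3. The rule names genes and uses no measured value.

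RNA was sequenced from C57BL/6 mouse hearts in 4 groups of 2 libraries: Piezo1-Cko hearts after TAC, Piezo1-Cko hearts after sham surgery, wild-type (WT) hearts after TAC and WT hearts after sham surgery. TAC stands for transverse aortic constriction, in which a tie around the aorta raises the pressure against which the left ventricle pumps. Piezo1 encodes a mechanically activated ion channel, and the labels name the Piezo1-Cko genotype without the cells, promoter or exons it concerns. They give neither the age of the mice nor the time after surgery, nor whether each library came from a separate mouse, so p-values measure the spread between these libraries, which may be technical. Values per library are given for replicate 1 and then replicate 2.

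Myosin is the motor of the sarcomere. A pair of heavy chains forms the motor heads and the tail of the thick filament, and each head carries an essential and a regulatory light chain. The adult mouse ventricle uses mainly the fast heavy chain of Myh6, and in rodents a swing towards the slow chain of Myh7 is a classic mark of pressure overload. Light chains also differ by chamber, with Myl2 and Myl3 in the ventricle and Myl7 and Myl4 in the atrium.

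Recovered reads numbered 15574769 to 17313084 per library, and 17.6% to 24.4% of them fell on mitochondrial genes. Piezo1 itself had 5.24 and 3.89 FPKM (fragments per kilobase of gene length, scaled to library size) in Piezo1-Cko TAC hearts and 5.38 and 5.83 FPKM in WT TAC hearts. Under sham surgery it had 3.83 and 3.235 FPKM in Piezo1-Cko hearts, against 2.35 and 3.09 FPKM in WT hearts. The Piezo1-Cko libraries were thus below the WT libraries under TAC and above them under sham surgery, and the gene total does not check the genotype label. Some WT libraries stood apart. WT sham replicate 1 carried atrial transcripts, described with Myl7, and WT TAC replicate 1 had the highest Myh7, the highest sum of 7 fibroblast markers (597 FPKM, against 244 to 462 FPKM in the other 7 libraries) and 22.5 FPKM of the plasma cell gene Jchain (0.0920 to 1.34 FPKM elsewhere). WT sham replicate 2 had 350.6 FPKM over 5 smooth muscle markers, against 97.0 to 209 FPKM in the other 7, and is the only WT sham library in fits that leave out WT sham replicate 1. Summed FPKM of 8 cardiomyocyte markers were 11120 and 12280 in Piezo1-Cko TAC, 16440 and 16750 in Piezo1-Cko sham, 11450 and 13390 in WT TAC, and 16220 and 16620 in WT sham. In bulk tissue, fewer cells of a type and less RNA per cell cannot be told apart.

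MicroRNA genes lie in introns of cardiac heavy chain genes, and their mature products are shown because Mir208b had the largest fall among the members that passed over both genotypes. Mir208b (GRCm38, as for all coordinates here, chromosome 14, 54975700 to 54975776, minus strand) sits in the intron between exons 31 and 32 of both 41-exon Myh7 transcripts and shares 0 exon bases with Myh7. Mir208a lies in the intron between exons 29 and 30 of Myh6, and Mir499 in the intron between exons 19 and 20 of Myh7b. RefSeq sequences (GRCm38.p6) are given 5′ to 3′ with the seed, bases 2 to 8, in capitals.
mmu-miR-208b-3p: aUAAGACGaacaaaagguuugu
mmu-miR-208a-3p: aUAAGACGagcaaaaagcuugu
mmu-miR-499-5p: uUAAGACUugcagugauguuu
The first 2 share 1 seed. Counted from the 5′ end, miR-208a-3p and miR-208b-3p differ by G10A, A16G and C18U, none in the seed, while miR-499-5p differs from miR-208b-3p within the seed by G8U. The 77-base row that was counted is the whole hairpin, shown here with the 3p arm in capitals.
Mir208b hairpin: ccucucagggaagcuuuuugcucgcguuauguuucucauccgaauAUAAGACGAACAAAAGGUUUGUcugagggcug
The labels name no selection of small RNA, so the row counts fragments over the hairpin and is no measure of the mature microRNA.

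Because the fast and slow heavy chains are the pair most often compared under TAC, the promoters of Myh6 and Myh7 are shown as well, as the 250 bases before the RefSeq start. Capitals mark the MCAT element, the letters CATTCC on either strand, which TEAD factors bind. It appears as GGAATG at position -206 in Myh6 and at position -201 in Myh7, where -1 is the base before the start.
Myh6, chr14:54966608-54966857, minus strand: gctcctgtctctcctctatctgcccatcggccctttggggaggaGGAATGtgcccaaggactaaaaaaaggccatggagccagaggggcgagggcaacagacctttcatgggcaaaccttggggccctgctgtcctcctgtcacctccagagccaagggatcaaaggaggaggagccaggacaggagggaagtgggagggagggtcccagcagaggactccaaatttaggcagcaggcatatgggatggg
Myh7, chr14:54994627-54994876, minus strand: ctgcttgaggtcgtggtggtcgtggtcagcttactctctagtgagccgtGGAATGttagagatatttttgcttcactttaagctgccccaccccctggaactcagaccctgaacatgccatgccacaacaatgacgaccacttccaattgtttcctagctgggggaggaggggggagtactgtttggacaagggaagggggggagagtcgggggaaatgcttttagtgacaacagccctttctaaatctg
The same letters occur in 12.6% of 32851 RefSeq promoters of this length. A second annotated Myh7 start has 0 matches in its own 250 bases (chr14:54994550-54994799). That window overlaps the Myh7 window shown and does not reach back to its MCAT element.

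TAC hearts had less of most of the members tested, the microRNA row Mir208b among them. With the effect averaged over both genotypes, 6 of the 9 members tested fell and 0 rose at an adjusted p under 0.05 (limma, Benjamini-Hochberg over 13928 genes), where 13.5% of all genes tested fell, 11.9% rose and 25.4% did either. The median log2 fold change of the 9 was -0.73, against 0.01 for all genes. With the 2 other scalings tried, the median of the 9 was -0.73 and -0.71. In FPKM the same 6 members had all 4 TAC libraries below all 4 sham libraries, as did 14.6% of all genes. Of all genes 13.1% lay the other way. As a share of recovered reads, Mylk3 overlapped while the others of these 6 stayed apart. Mylk3 took 0.0298% and 0.02857% in WT TAC, against 0.02905% and 0.04541% in WT sham and 0.03416% and 0.02883% in Piezo1-Cko sham. Library sizes behind the FPKM were 1.02 to 1.10 times recovered reads in TAC libraries and 0.886 to 0.945 times in sham libraries. In Piezo1-Cko hearts alone 1 of 9 fell and 0 rose, where 0.546% of all genes fell, 0.948% rose and 1.49% did either. There the TAC libraries lay below the sham libraries for 7 members and above them for 1, as for 28.3% and 28% of all genes. In WT hearts alone 4 of 9 fell and 0 rose, where 7.65% of all genes fell, 5.57% rose and 13.2% did either. There 6 members lay below and 1 above, as did 30.9% and 31.3% of all genes. With each library left out in turn, 2 to 6 members fell over both genotypes: 2 once Cko sham replicate 1 was dropped, 4 for Cko sham replicate 2 or Cko TAC replicate 1, and 5 for WT TAC replicate 1. Dropping WT sham replicate 2 also gave 6, with Myl4 in place of Myl3. In WT hearts 0 to 4 fell, with 2 once either Cko sham library was dropped and 0 once WT TAC replicate 1 was dropped. The only member that fell was Myh7b once WT sham replicate 1 was dropped (adjusted p = 0.0487), and Myl4 once WT sham replicate 2 was dropped (0.0264). With only the compared groups in the fit, Mylk3 also passed in Piezo1-Cko (adjusted p = 0.0458), and in WT Myh6 (0.105) and Myl2 (0.0830) no longer did. With no filter on low values 0 members passed within a genotype (Myh7b at an adjusted p of 0.134 in Piezo1-Cko and 0.0512 in WT), and over both genotypes the call of Myl3 alone was lost (0.0644). With replicate 1 of each WT group left out together, 0 members passed in WT, and in Piezo1-Cko Mylk3 passed (0.0483) and Myh7b did not (0.0516). The 10 genes together took 2.17% and 2.70% of reads in Piezo1-Cko TAC, against 3.18% and 3.31% in Piezo1-Cko sham, and 2.44% and 2.62% in WT TAC, against 3.41% and 3.68% in WT sham. These shares did not overlap between TAC and sham. Per kilobase, the order of the protein-coding members in sham hearts, the atrial chains aside, was Myl2, Myl3, Myh6, Mybpc3, Mylk3, Myh7 and Myh7b, with Myh7 (13.7 to 24.9 FPKM) and Myh7b (11.8 to 16.7 FPKM) overlapping. Myl2 and Myl3 did not overlap in sham hearts, but did in TAC hearts, at 2133 to 3373 and 2093 to 2904 FPKM.

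Myh6 encodes the fast alpha heavy chain (chromosome 14, 54941921 to 54966927, minus strand). It had 1240 and 1607 FPKM in Piezo1-Cko TAC hearts, against 2012 and 2262 FPKM in Piezo1-Cko sham hearts. WT hearts had 1145 and 1563 FPKM after TAC, against 2618 and 2264 FPKM after sham surgery. Every TAC library was below every sham library. Over both genotypes Myh6 fell by 0.73 on the log2 scale (SE 0.159, adjusted p = 0.0175), a call that was lost without Cko sham replicate 1 (adjusted p = 0.0601), Cko sham replicate 2 (0.0739) or Cko TAC replicate 1 (0.0573). In WT hearts it fell by 0.86 (SE 0.226, adjusted p = 0.0458). That call was lost without WT sham replicate 1 or 2, Cko sham replicate 1 or 2, or WT TAC replicate 1, with adjusted p-values up to 0.181. In Piezo1-Cko hearts the log2 fold change was -0.60 (adjusted p = 0.180).

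Myh7, the gene of the slow beta heavy chain (chromosome 14, 54970684 to 54994626, minus strand), had 32.5 and 16.6 FPKM in Piezo1-Cko TAC hearts, against 15.6 and 13.7 FPKM in Piezo1-Cko sham hearts. WT hearts had 266 and 56.7 FPKM after TAC, against 24.6 and 24.9 FPKM after sham surgery. TAC was higher than sham within each genotype, but Cko TAC replicate 2 lay below both WT sham libraries. The libraries of WT TAC differed by more than any other pair of replicates of this gene. Averaged over both genotypes the log2 fold change was 1.47 (SE 0.451), just short of the threshold (adjusted p = 0.0503). It passed with trimmed-mean scaling (adjusted p = 0.0489) and with a pseudocount of 0.1 FPKM (0.0483), but not with limma-voom (0.0822) or without the filter on low values (0.125). It also passed without WT TAC replicate 1, at 0.91 (adjusted p = 0.0392), and without WT TAC replicate 2, at 2.02 (0.00354). In Piezo1-Cko hearts it was 0.65 (SE 0.638, 95% interval -0.84 to 2.14, adjusted p = 0.602). The WT value was 2.29 with all libraries (adjusted p = 0.0545), 1.18 without WT TAC replicate 1 (adjusted p = 0.124) and 3.40 without WT TAC replicate 2 (adjusted p = 0.00597).

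As a share of summed Myh6 and Myh7 FPKM, Myh7 made up 2.55% and 1.02% in Piezo1-Cko TAC hearts, against 0.771% and 0.603% in Piezo1-Cko sham hearts. It made up 18.9% and 3.50% in WT TAC hearts, against 0.930% and 1.09% in WT sham hearts. Myh6 thus remained the main heavy chain transcript in each of the 8 libraries. The shares averaged 1.79% ± 1.08 in Piezo1-Cko TAC, 0.687% ± 0.119 in Piezo1-Cko sham, 11.2% ± 10.9 in WT TAC and 1.01% ± 0.112 in WT sham (SD, n = 2 each). Of the 50-base stretches of an annotated transcript, 22.6% in Myh6 and 28.3% in Myh7 also occurred in another gene, 1373 of them shared by Myh6 and Myh7. Reads from these stretches could be split between the genes by the authors' counting.

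**Figure D1:**
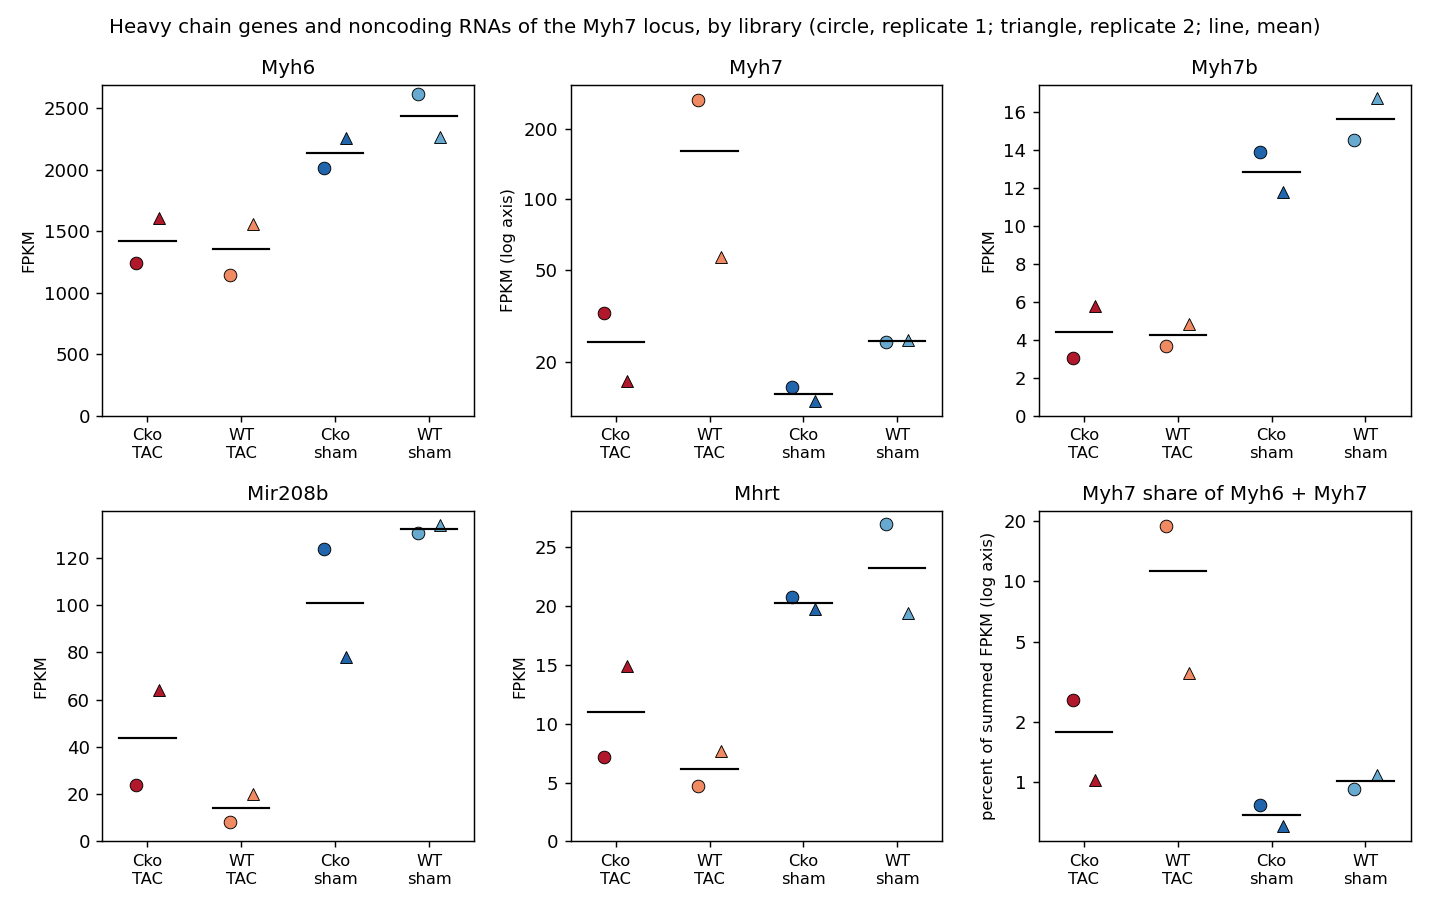
Values of the heavy chain genes, Mir208b and Mhrt (FPKM) and the Myh7 share (percent of summed Myh6 and Myh7 FPKM) in the 8 libraries, with circles for replicate 1, triangles for replicate 2 and lines for group means, and log axes for Myh7 and the share. Myh6, Myh7b, Mir208b and Mhrt have all TAC libraries below all sham libraries, and Myh7 reaches 266 FPKM in 1 WT TAC library.

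Myh7b encodes a slow-type heavy chain related to Myh7 (chromosome 2, 155611212 to 155634307, plus strand). Its level was 3.06 and 5.78 FPKM in Piezo1-Cko TAC hearts, against 13.9 and 11.8 FPKM in Piezo1-Cko sham hearts. WT hearts had 3.69 and 4.82 FPKM after TAC, against 14.5 and 16.7 FPKM after sham surgery. The highest TAC library had less than the lowest sham library in each genotype. Myh7b fell by 1.77 on the log2 scale in WT hearts (SE 0.266, adjusted p = 0.0162), by 1.49 in Piezo1-Cko hearts (SE 0.266, adjusted p = 0.0479) and by 1.63 over both (SE 0.188, adjusted p = 0.00369). The last call held whichever library was left out, with an adjusted p of at most 0.0231. The WT call was lost without WT sham replicate 2 (adjusted p = 0.0712) or WT TAC replicate 1 (0.0788). The Piezo1-Cko call was lost without Cko sham replicate 1 (0.292), Cko sham replicate 2 (0.184), Cko TAC replicate 1 (0.168), WT sham replicate 1 (0.0622) or WT sham replicate 2 (0.0630). It was thus near the threshold, while the direction was the same in all of these fits. Mir499, in its intron, had 0 reads in all 8 libraries.

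The Mir208b row fell under TAC, while its host gene Myh7 had higher values there that did not pass. Whether the authors counted by strand is not given in the sources used here, so reads of this row may come from either strand. Mir208b had 23.9 and 63.9 FPKM in Piezo1-Cko TAC hearts, against 124 and 78.0 FPKM in Piezo1-Cko sham hearts, and 8.38 and 19.9 FPKM in WT TAC hearts, against 131 and 134 FPKM in WT sham hearts. These came from 34 and 85 reads in Piezo1-Cko TAC, 146 and 92 in Piezo1-Cko sham, 12 and 27 in WT TAC, and 143 and 146 in WT sham. Every TAC library was below every sham library. Over both genotypes Mir208b fell by 2.31 on the log2 scale (SE 0.367, adjusted p = 0.00725), and with each library left out in turn the adjusted p was at most 0.0355. In WT hearts it fell by 3.30 (SE 0.519, adjusted p = 0.0172), a call lost without WT sham replicate 1 (adjusted p = 0.0536), WT sham replicate 2 (0.0771) or WT TAC replicate 1 (0.0764). In Piezo1-Cko hearts the value was -1.32 (adjusted p = 0.196). Relative to Myh7, Mir208b FPKM were 0.737 and 3.85 times as high in Piezo1-Cko TAC and 7.92 and 5.69 times in Piezo1-Cko sham. The ratio was 0.0315 and 0.350 in WT TAC and 5.32 and 5.37 in WT sham. The 2 WT TAC libraries had the lowest ratios. The lowest of all was WT TAC replicate 1, which had the most Myh7 and the least Mir208b. As Myh7 is the divisor, a low ratio in that library follows in part from its Myh7 value.

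The opposite-strand rows of the locus that were tested fell over both genotypes, as Mir208b did, and Gm29015, also within Myh7, was at 0 FPKM in every library. Mhrt, a long noncoding RNA of the heart transcribed from the opposite strand of Myh7, had 7.15 and 14.9 FPKM in Piezo1-Cko TAC, against 20.8 and 19.7 FPKM in Piezo1-Cko sham. It had 4.69 and 7.65 FPKM in WT TAC, against 27.0 and 19.4 FPKM in WT sham. Mhrt fell by 1.39 over both genotypes (SE 0.248, adjusted p = 0.00972) and passed in 8 of 8 fits with a library left out. Of its exon bases, 484 also lie in exons of Myh7, and whether the authors counted by strand is not given in the sources used here, so reads of the pair cannot be told apart there. Mhrt lies 1350 bases from Mir208b. The opposite-strand rows Gm31251 and Gm17428 within Myh7 had log2 fold changes of -0.83 and -2.61, and Gm49130 at the end of Myh6 one of -1.60, each passing over both genotypes. Gm31251 passed in 2 and Gm17428 in 3 of the 8 fits with a library left out, and Gm49130 in 7, failing without Cko sham replicate 2 (adjusted p = 0.0590). Gm17428 rested on 3 to 103 reads per library and Gm31251 on 14 to 47. In Piezo1-Cko hearts the Gm17428 groups overlapped, at 1.75 and 16.8 FPKM after TAC and 22.5 and 8.43 FPKM after sham surgery. Mir208a had 0 to 11 reads per library and was not tested.

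**Figure D2:**
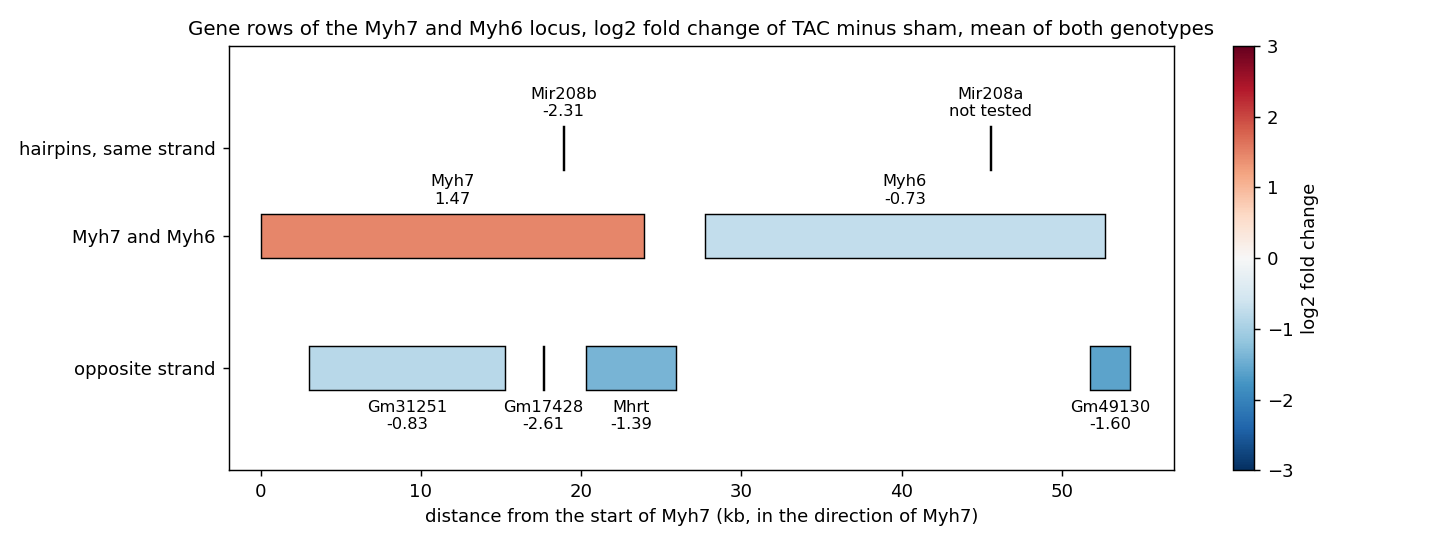
Map of the Myh7 and Myh6 locus by distance from the start of Myh7 (kb), with boxes for gene rows coloured and numbered by the log2 fold change of TAC minus sham averaged over both genotypes; vertical strokes are rows too short to show a colour. Of the rows drawn only Myh7, at 1.47 and short of the threshold, has a positive value, while the other tested rows run from -0.73 (Myh6) to -2.61 (Gm17428).

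Myl2, the ventricular regulatory light chain (chromosome 5, 122100951 to 122113472, plus strand), was the most abundant member per kilobase in each group mean. It had 2303 and 3373 FPKM in Piezo1-Cko TAC, against 5216 and 4691 FPKM in Piezo1-Cko sham, and 2133 and 3002 FPKM in WT TAC, against 4984 and 6086 FPKM in WT sham. All TAC libraries were lower than all sham libraries. Myl2 fell by 0.97 on the log2 scale over both genotypes (SE 0.188, adjusted p = 0.0119), a call lost only without Cko sham replicate 1 among the 8 libraries (adjusted p = 0.0559). In WT hearts it fell by 1.12 (SE 0.266, adjusted p = 0.0364), not passing without either WT sham library, either Cko sham library or WT TAC replicate 1 (adjusted p up to 0.151). In Piezo1-Cko hearts the value was -0.83 (adjusted p = 0.132).

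Myl3, the ventricular essential light chain (chromosome 9, 110741861 to 110769798, plus strand), had 2179 and 2843 FPKM in Piezo1-Cko TAC, against 3844 and 3570 FPKM in Piezo1-Cko sham. It had 2093 and 2904 FPKM in WT TAC, against 3661 and 4581 FPKM in WT sham. The TAC and sham libraries again did not overlap. Over both genotypes it fell by 0.65 (SE 0.171, adjusted p = 0.0308), and the call was lost without WT sham replicate 2 (adjusted p = 0.0882), WT TAC replicate 1 (0.0737), Cko sham replicate 1 (0.110), Cko sham replicate 2 (0.0904) or Cko TAC replicate 1 (0.0942). Within a genotype it did not pass, at -0.57 in Piezo1-Cko (adjusted p = 0.222) and -0.73 in WT hearts (adjusted p = 0.0818). Myl2 stood at 1.06 and 1.19 times Myl3 in Piezo1-Cko TAC, 1.36 and 1.31 times in Piezo1-Cko sham, 1.02 and 1.03 times in WT TAC and 1.36 and 1.33 times in WT sham. The ratio of the ventricular light chains was lower in each TAC library than in each sham library.

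Mybpc3 encodes cardiac myosin-binding protein C, which tunes the myosin heads along the thick filament (chromosome 2, 91118144 to 91136516, plus strand). It had 467 and 551 FPKM in Piezo1-Cko TAC, against 690 and 680 FPKM in Piezo1-Cko sham, and 882 and 634 FPKM in WT TAC, against 633.5 and 738 FPKM in WT sham. The groups separated in Piezo1-Cko hearts and overlapped in WT hearts. The log2 fold change of TAC was -0.43 in Piezo1-Cko (SE 0.202, adjusted p = 0.264) and 0.13 in WT (SE 0.202, adjusted p = 0.687), or -0.11 in WT without WT TAC replicate 1.

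Mylk3 encodes the cardiac myosin light chain kinase, which phosphorylates the light chain of Myl2 (chromosome 8, 85324303 to 85386345, minus strand). It had 46.3 and 41.7 FPKM in Piezo1-Cko TAC, against 87.8 and 71.2 FPKM in Piezo1-Cko sham, and 63.8 and 65.4 FPKM in WT TAC, against 76.5 and 116 FPKM in WT sham. The Piezo1-Cko TAC libraries were the lowest of the 8. Mylk3 fell by 0.69 over both genotypes (SE 0.147, adjusted p = 0.0161), a call lost only without Cko sham replicate 1 among the 8 libraries (adjusted p = 0.0664). Within Piezo1-Cko it was -0.84 (adjusted p = 0.0803) and within WT -0.54 (adjusted p = 0.116).

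**Figure D3:**
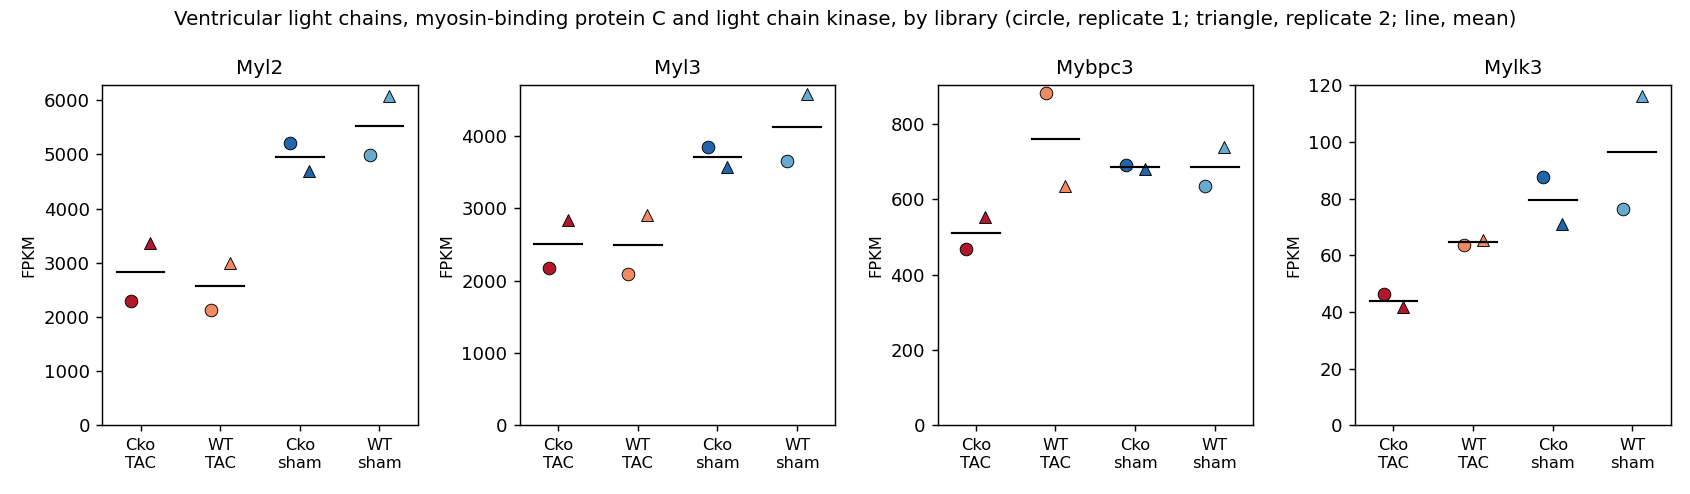
FPKM of Myl2, Myl3, Mybpc3 and Mylk3 in the 8 libraries, with circles for replicate 1, triangles for replicate 2, lines for group means and axes from 0. TAC libraries lie below sham libraries for Myl2, Myl3 and Mylk3, while Mybpc3 in WT TAC reaches 882 FPKM.

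The fall of these members went with lower levels of other cardiomyocyte genes. Over both genotypes 5 of the 8 cardiomyocyte markers fell and 0 rose, with a median of -0.52. Of all genes tested 13.5% fell and 11.9% rose there. Tnni3, the cardiac inhibitory troponin, fell by 1.30, the calcium pump regulator Pln by 0.96 and the troponin T gene Tnnt2 by 0.87, each passing in 8 of 8 fits with a library left out. Mb and Ckm also fell, by 0.55 and 0.50, but did not pass in every such fit. Actc1, the cardiac actin gene, and Casq2, which encodes the calcium store protein calsequestrin, did not pass, at 0.09 (adjusted p = 0.637) and 0.28 (0.109). Both were higher in the WT TAC than in the WT sham libraries. All 6 macrophage markers rose, with a median of 0.77, as did 3 of 7 fibroblast markers. Of these 9 genes Csf1r and Lum passed in 2 of 8 fits with a library left out, Adgre1, C1qa and Lyz2 in 6, and Cd68, C1qb, Col1a1 and Col1a2 in 8. In Piezo1-Cko alone 0 of 8 cardiomyocyte markers passed with limma, where 0.546% of all genes fell. There 6 had an unadjusted p under 0.05, as did 3036 of 13928 genes. In WT alone 3 of 8 fell, as did 7.65% of all genes. How much the mix of cells contributed to the members' fall was not tested.

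The atrial light chains were near absent apart from 1 library. Myl7, the atrial regulatory light chain (chromosome 11, 5896637 to 5898782, minus strand), had 394 FPKM from 3308 reads in WT sham replicate 1. The other 7 libraries had 0 to 0.443 FPKM, from at most 4 reads, and 4 of them were at 0 reads, which at a floor of 3 reads does not exclude a low level. Myl7 did not pass the filter on low values and was not tested. Myl4, the atrial essential light chain (chromosome 11, 104550663 to 104595753, plus strand), had 40.4 FPKM in WT sham replicate 1 and 0.440 to 1.12 FPKM in the other 7. Its log2 fold change of TAC in WT hearts was -2.47 (SE 1.38, adjusted p = 0.250) and 0.12 without that library. Leaving out WT sham replicate 2 left the library with atrial transcripts as the only WT sham sample. The Myl4 value was then -5.07 in WT hearts and -2.40 over both genotypes. In Piezo1-Cko hearts it was 0.26 (adjusted p = 0.934). Among 12 atrial markers, 1 rose and 3 fell of the 8 tested over both genotypes, where 11.9% of all genes rose and 13.5% fell. Nppa rose, and Kcna5, Kcnj3 and Stard10, present in every library, fell. Sln, a calcium pump regulator of the atrium, had 43.5 FPKM in WT sham replicate 1 and 0 in the other 7, and Mybphl had 11.7 FPKM there and at most 0.331 FPKM elsewhere. Fgf12 had 0.408 FPKM there and at most 0.0560 FPKM elsewhere. Tbx5, Kcnj5, Kcnj3 and Stard10 were also highest there, at 5.88, 13.96, 12.8 and 20.4 FPKM, though present in every library. Gja5 was lowest there, at 1.40 FPKM against 1.89 to 3.24 FPKM in the other 7. Kcna5 had 23.6 FPKM there, below the 25.3 FPKM of WT sham replicate 2. Bmp10, made in the right atrium, was at 0 in all 8 libraries. Dkk3 was high in a second library as well, with 41.0 FPKM in WT sham replicate 1, 25.2 FPKM in WT TAC replicate 1 and 0.758 to 2.13 FPKM elsewhere. Summed over the 12 markers, Nppa included, FPKM were 777 and 551 in Piezo1-Cko TAC, 152 and 155 in Piezo1-Cko sham, 1908 and 573 in WT TAC, and 286 and 179 in WT sham. Nppa, which the loaded ventricle also makes, had 742 and 515 FPKM in Piezo1-Cko TAC, 97.9 and 102 FPKM in Piezo1-Cko sham, 1855 and 532 FPKM in WT TAC, and 112 and 116 FPKM in WT sham. With WT sham replicate 1 and WT TAC replicate 1 both left out, Myh7b (adjusted p = 0.0210), Mir208b (0.0350), Mylk3 (0.0220) and Myl2 (0.0421) still fell over both genotypes. Myh6 (0.0806) and Myl3 (0.0720) then did not pass.

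**Figure D4:**
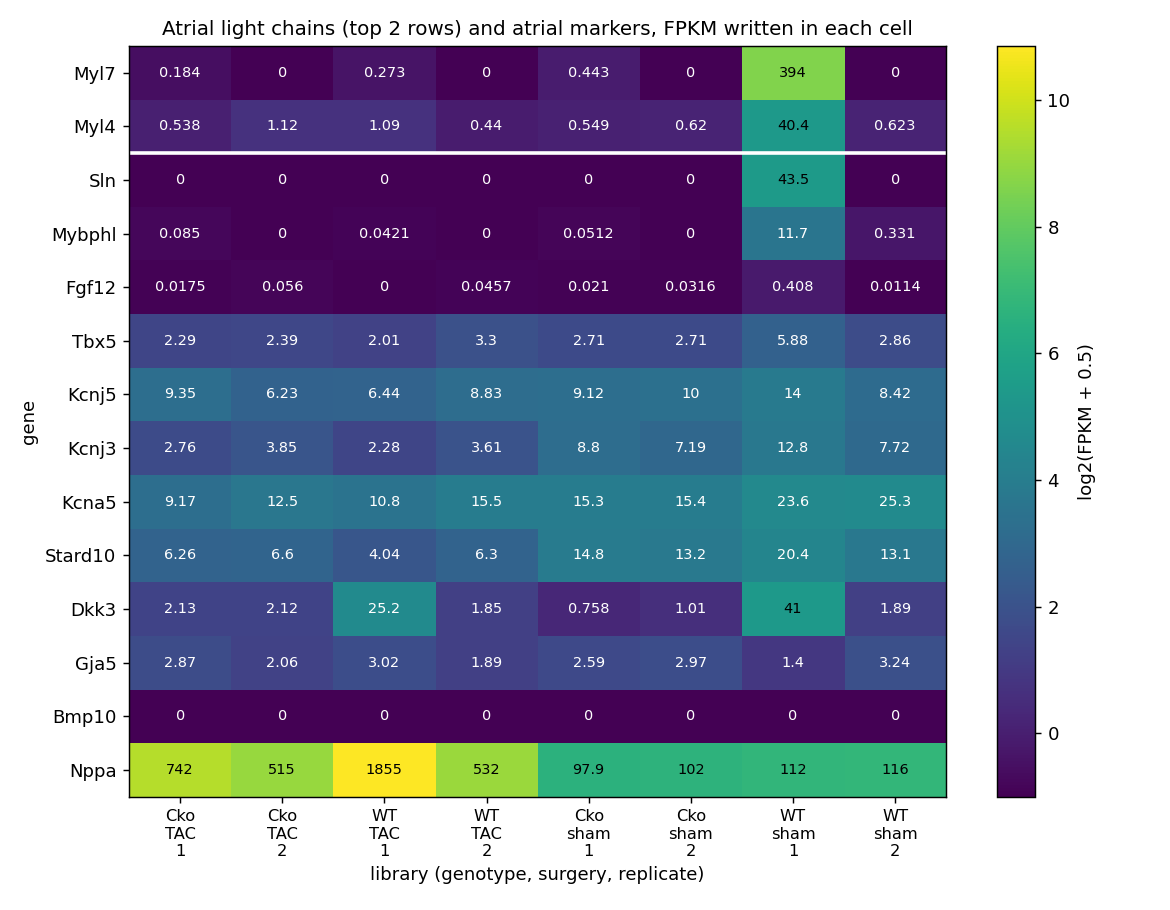
FPKM of Myl7, Myl4 and 12 atrial markers in the 8 libraries, written in each cell and coloured by log2(FPKM + 0.5). WT sham replicate 1 alone combines Myl7 at 394 FPKM with Myl4, Sln and Mybphl, and Nppa is higher in the TAC libraries than in the sham libraries.

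With all libraries, no difference between genotypes passed for any of the 9 members tested. Under TAC, Myh7 was 2.38 lower on the log2 scale in Piezo1-Cko than in WT hearts (32.5 and 16.6 against 266 and 56.7 FPKM; SE 0.638, 95% interval -3.87 to -0.89, adjusted p = 0.505). The value turned on the WT TAC libraries: it was -1.27 without WT TAC replicate 1 (adjusted p = 0.958) and -3.49 without WT TAC replicate 2, where it passed (adjusted p = 0.0357). Mir208b was 1.56 higher (95% interval 0.35 to 2.78, adjusted p = 0.515), Mybpc3 lower at -0.56 (adjusted p = 0.526) and Mylk3 lower at -0.55 (adjusted p = 0.532). For these 4 genes the Piezo1-Cko and WT libraries did not overlap under TAC, as was so for 20.3% of all genes in the higher and 19.4% in the lower direction. Limma called 0 of 13928 genes in that comparison, limma-voom also 0, and 1269 genes, 4 of them members, had an unadjusted p under 0.05. The other 5 members overlapped, with 95% intervals of -0.45 to 0.60 for Myh6, -0.62 to 0.62 for Myh7b, -0.48 to 0.76 for Myl2, -0.55 to 0.58 for Myl3 and -3.15 to 3.33 for Myl4.

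Under sham surgery the largest values were -2.65 for Myl4, at -0.05 without WT sham replicate 1 and -5.24 without WT sham replicate 2 (adjusted p = 0.0320), and -0.74 for Myh7 (95% interval -2.23 to 0.75, adjusted p = 0.876). Limma called 3 of 13928 genes there (0.0215%, with 0.0144% higher and 0.00718% lower in Piezo1-Cko) and 0 members. limma-voom called 3 genes, and 0 members had an unadjusted p under 0.05. In Piezo1-Cko 5 members lay below WT in every library and 0 above, as did 20.3% and 19.3% of all genes. The difference in TAC response, Piezo1-Cko minus WT, was 1.99 for Mir208b (unadjusted p = 0.0288, adjusted p = 0.911). It was -1.64 for Myh7 (95% interval -3.75 to 0.47, adjusted p = 0.911) and -0.56 for Mybpc3 (adjusted p = 0.911). The test called 1 gene (0.00718%) and 0 members, limma-voom also called 1 gene, and 664 genes had an unadjusted p under 0.05. Averaged over both surgeries, Myh7 had -1.56 (adjusted p = 0.280) and Mylk3 -0.40 (adjusted p = 0.363), the 2 members with an unadjusted p under 0.05. There limma called 1 gene (0.00718%) and 0 members, limma-voom called 2 genes, and 1589 genes had an unadjusted p under 0.05. Libraries were apart in 0 members, against 1.72% of all genes higher and 2.35% lower in Piezo1-Cko. The TAC falls of Myh6, Myl2 and Mir208b that passed in WT but not in Piezo1-Cko hearts were therefore not shown to differ between genotypes.

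**Figure D5:**
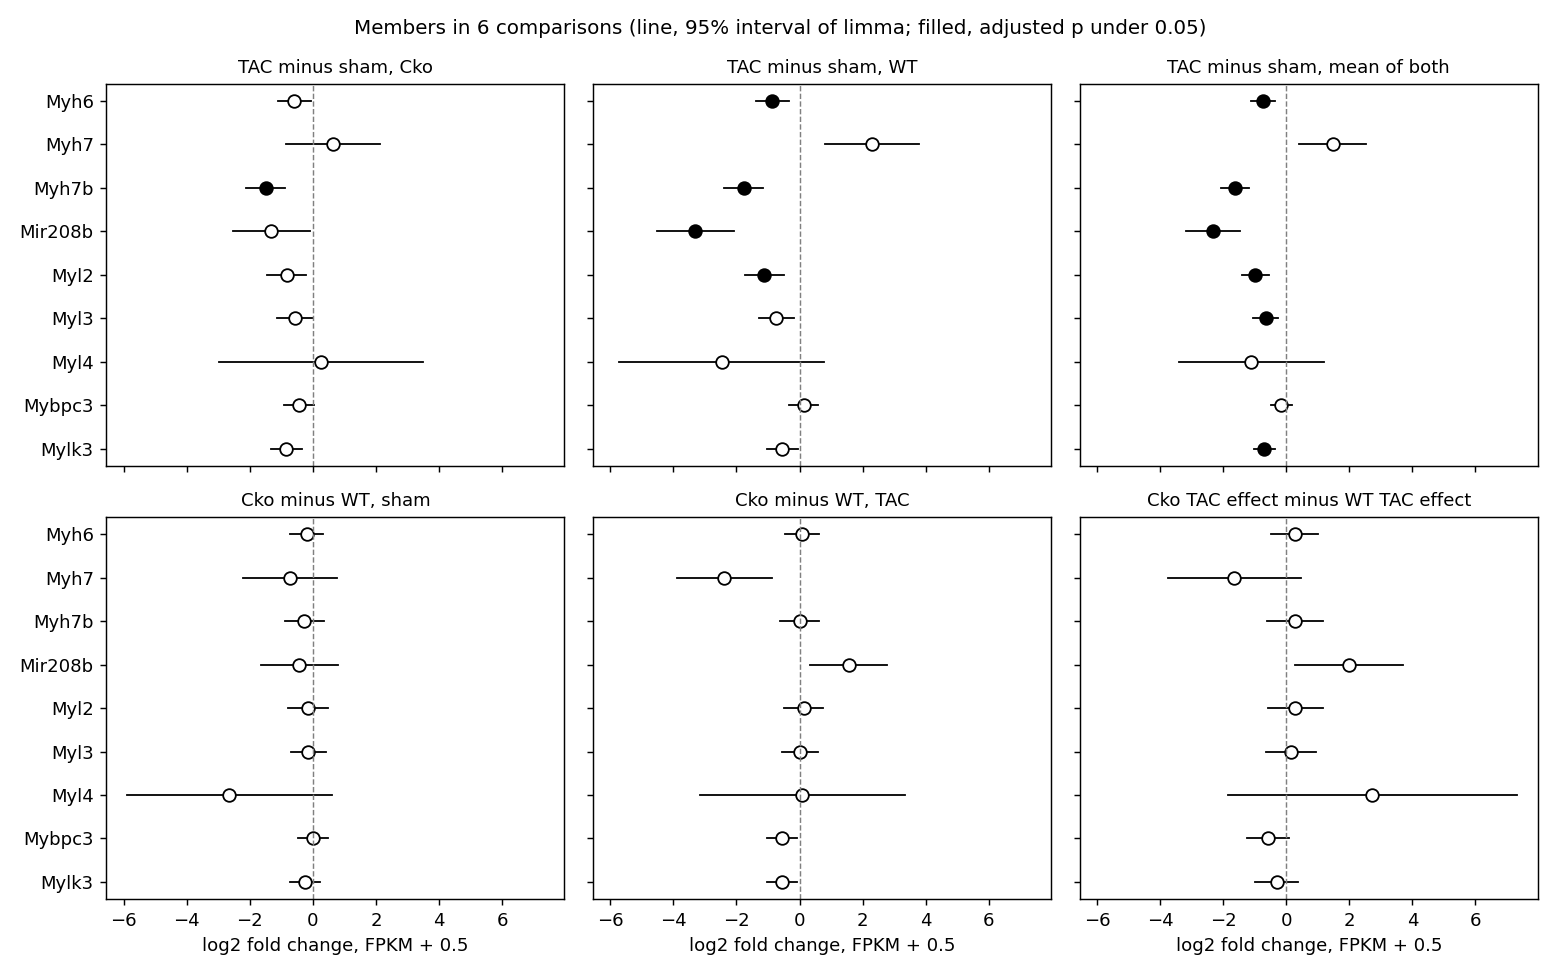
Log2 fold changes of the 9 tested members on log2(FPKM + 0.5) in 6 comparisons, with points for estimates, lines for 95% limma intervals and filled points for an adjusted p under 0.05. The upper row holds TAC minus sham, where 1 point is filled in Piezo1-Cko, 4 in WT and 6 in the mean of both, and the lower row the genotype comparisons, with 0 filled.

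Other genes of the thick filament are given over both genotypes, where 13.5% of all genes tested fell and 11.9% rose. Of 7 tested thick-filament partners 1 rose and 1 fell, with a median log2 fold change of -0.17. Mybpc2, the fast skeletal form of myosin-binding protein C, had 9.69 and 11.01 FPKM in Piezo1-Cko TAC, against 2.08 and 3.53 FPKM in Piezo1-Cko sham, and 15.2 and 11.4 FPKM in WT TAC, against 3.78 and 4.84 FPKM in WT sham. It rose by 1.63 (SE 0.172, adjusted p = 0.00288), also by 1.75 in Piezo1-Cko alone (adjusted p = 0.0338) and 1.52 in WT alone (adjusted p = 0.0173). Over both genotypes it passed in 8 of 8 fits with a library left out. The Piezo1-Cko call was lost without any of the 4 Cko libraries (adjusted p up to 0.251), and the WT call without either WT sham library or the first WT TAC library (up to 0.0823). Its TAC libraries were higher than its sham libraries without exception, unlike those of the cardiac form Mybpc3. Among 11 other heavy chains 4 were tested: the nonmuscle genes Myh9 and Myh10 rose by 0.59 (adjusted p = 0.00687) and 0.67 (0.0240), and Myh14 fell by 0.58 (0.0151). Of these Myh9 passed in 8 of 8 fits with a library left out, Myh14 in 6 and Myh10 in 3. Of 7 tested light chains outside the members, Myl1, the fast skeletal and embryonic essential chain, rose by 1.01 (adjusted p = 0.0225) and passed in 4 of those 8 fits.

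Of 8 tested light chain kinase and phosphatase genes, the kinase gene Mylk4 fell by 0.60 (adjusted p = 0.00678, 8 of 8 fits) and none rose. Among 10 folding and turnover genes 2 fell and 1 rose. The myosin chaperone Unc45b fell by 0.56 (adjusted p = 0.0128, 7 of 8 fits), the microtubule-linked ubiquitin ligase gene Trim54 by 0.48 (0.0151, 6 of 8 fits), and the chaperone gene Hsp90aa1 rose by 0.56 (0.0329, passing in 2 of 8 fits). Of 23 tested regulators of myosin genes 3 rose and 2 fell, close to the shares of all genes. Vgll4, a cofactor of TEAD factors, rose by 0.54 (adjusted p = 0.0119, 8 of 8 fits), at 4.88 and 4.17 FPKM in Piezo1-Cko TAC, 4.27 and 3.46 FPKM in Piezo1-Cko sham, 5.46 and 5.83 FPKM in WT TAC, and 2.96 and 2.72 FPKM in WT sham. Its TAC and sham libraries overlapped in Piezo1-Cko hearts. Thrb, a thyroid hormone receptor, fell by 0.50 (adjusted p = 0.0261, 2 of 8 fits). Dio3, whose enzyme inactivates thyroid hormone, was at 2.35 and 0.627 FPKM in Piezo1-Cko TAC, against 0.161 and 0 FPKM in Piezo1-Cko sham, and at 1.38 and 0.363 FPKM in WT TAC, against 0 and 0.0347 FPKM in WT sham. It rose over both genotypes (adjusted p = 0.0236, 2 of 8 fits). Tead1, which encodes a TEAD factor, had a value of 0.32 that did not pass (adjusted p = 0.0917).

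By Pearson correlation of log2(FPKM + 0.5) over the 8 libraries, the protein-coding genes most like Myh7 included Trak2 (0.999), Polr3g, Map4 and Akap11. Those most like Myh6 were Pln (0.991), Atp5c1, Cpt2, Eci1 and Slc25a26, those most like Myh7b were Ldhb (0.995), D10Jhu81e, Idh3g, Rsrp1 and Gcdh, and those most like Mir208b were Sap18 (0.989), Mrpl42, Apmap, Dus4l and Polr2f. These values describe 8 points in 4 groups that share surgery and library scaling. Trak2, which encodes an adaptor for mitochondrial transport, had 24.7 and 20.5 FPKM in Piezo1-Cko TAC, 20.02 and 19.58 FPKM in Piezo1-Cko sham, 43.4 and 29.3 FPKM in WT TAC, and 23.4 and 22.7 FPKM in WT sham, so WT TAC replicate 1 was its highest library, as for Myh7.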

How the data were processed

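Heart RNA was taken up in Trizol and made into NEBNext Ultra libraries, per the labels' protocols. Tools in the submitters' processing notes are featureCounts 1.5.0-p3, Bowtie 0.12.2 and CASAVA 1.8, beside mm10 and mm8 as builds, without roles; strand and read length are not given in the sources used here. The authors deposited 1 table of FPKM with the gene lengths. Multiplied by gene length, the values of a library fell on a grid of equal steps, 1 read each, which gave the reads (100% whole, tolerance 0.01 read). Gene spans matched GENCODE M21 (GRCm38) for 53585 of 54495 shared identifiers and for all 10 members.

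The 10 members and all gene and marker lists were chosen with earlier results of these data known. limma 3.58.1 in R 4.3.3 (intensity trend, robust) was fitted to log2(FPKM + 0.5) of all 8 libraries with 1 term per group, for genes with at least 0.5 FPKM and 10 reads in at least 2 libraries: 13928 genes, 9 of them members. Fold changes are on that log2 scale, which understates the change of low genes. Tests are two-sided, adjusted by Benjamini-Hochberg over all 13928 genes, threshold 0.05. The 7 comparisons set TAC against sham per genotype and over both, Piezo1-Cko against WT under each surgery and averaged over both, and the difference of the TAC responses. The 2 libraries of each group differed well beyond sampling noise (chi-square over its degrees of freedom 15.9 to 40.5). Shares and ratios carry no test, and reads of 0 have a floor of 3 reads, which covers counting error only. Named genes are the members, Piezo1, genes overlapping a member, at most 3 passing genes per list with the largest change, and the 5 genes most correlated with Myh7, Myh6, Myh7b and Mir208b. Some genes that this rule names are not reported here. Marker genes and Tead1 were added after their values were seen. Alternatives were 2 other scalings, limma-voom on the reads, no filter, pseudocounts of 0.1 and 1 FPKM, the replicate number as a block, scaling without mitochondrial genes, the compared groups alone, each library left out, and, chosen after seeing the data, WT sham replicate 1 and WT TAC replicate 1 both left out. The limma-voom fit used the library sizes behind the FPKM, and no fit used the plain read totals as library sizes. Steps were tested on simulated data.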

Additional observations from a re-analysis of the deposited data

How the results depend on the processing

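Of 1107 recomputed values for 63 member results, 1003 kept their direction and side of the threshold, 45 lost a call, 13 gained one and 46 changed sign, 0 of those where a call had been made. The calls of Myh7b and Mir208b over both genotypes held in every alternative run. With no filter on low values the genes called were 247 in WT TAC against sham, 0 in Piezo1-Cko TAC against sham, 1 between genotypes under sham, 2 for the difference of responses, 1927 for TAC over both genotypes and 0 for genotype over both surgeries, against 1842, 208, 3, 1, 3537 and 1 as reported; the cause was not tested. With only the compared groups in the fit they were 365 in WT, 466 in Piezo1-Cko and 1 between genotypes under TAC. limma-voom called 390 genes in Piezo1-Cko and 2 for genotype over both surgeries. Without WT sham replicate 1 and WT TAC replicate 1 together the counts were 1 in WT, 423 in Piezo1-Cko, 1 between genotypes under TAC, 1851 over both genotypes and 2 for genotype over both surgeries. With each library left out the counts ran from 74 to 2120 in WT, 0 to 387 in Piezo1-Cko, 1 to 4 and 0 to 21 between genotypes under sham and TAC, 1 to 3 for the difference of responses, 1332 to 3669 over both genotypes and 0 to 3 for genotype over both surgeries. Sign changes, all of uncalled values, were Myl2 over both surgeries at 0.002209 (trimmed mean) and Myh7b between genotypes under TAC at -0.007776 (limma-voom) and -0.002631 (pseudocount 0.1). Without WT sham replicate 1 and WT TAC replicate 1 together, Mybpc3 was at -0.22 in WT and -0.11 between genotypes under sham. Between genotypes under TAC, Myh6 was then at -0.15, Myh7b at -0.17, Myl2 at -0.11 and Myl3 at -0.22, Myh6 for the difference of responses at -0.0606, and Myl4 at 0.001632 over both genotypes and 0.21 over both surgeries. With each library left out, log2 values that crossed 0 ran as follows. TAC against sham gave Myl4 -0.0623 to 0.583 in Piezo1-Cko, -5.07 to 0.122 in WT and -2.40 to 0.191 over both, and Mybpc3 -0.109 to 0.366 in WT. Piezo1-Cko against WT under sham gave Myl3 -0.307 to 0.0171, Mybpc3 -0.108 to 0.113 and Mylk3 -0.554 to 0.0470. Under TAC it gave Myh6 -0.147 to 0.302, Myh7b -0.407 to 0.412, Myl2 -0.136 to 0.415, Myl3 -0.222 to 0.250 and Myl4 -0.293 to 0.466. Over both surgeries it gave Myh6 -0.168 to 0.0556, Myh7b -0.341 to 0.0681, Myl2 -0.145 to 0.130, Myl3 -0.184 to 0.0524 and Myl4 -2.58 to 0.0176. The difference of responses gave Myh7b -0.132 to 0.687, Myl3 -0.0777 to 0.394 and Mylk3 -0.598 to 0.00364. Differences of replicate 1 minus replicate 2 over the tested genes correlated between groups at 0.0256 to 0.248. The labels do not say whether the replicate numbers pair the samples, and these correlations cannot decide it. With the replicate number as a block, 2187 genes were called in WT, 236 in Piezo1-Cko and 3748 over both genotypes, and Myh7 passed in WT (adjusted p = 0.0353) and over both genotypes (0.0308). With 2 libraries a group, depth was not the limit for the abundant members. Mir208b, Myl7, Mir208a, Gm17428 and Gm31251 rested on few reads in some or all libraries.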
